A study of Mus musculus with 24 samples.

Results

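Transcription factors that give gut epithelium its position along the digestive tract were followed here in jejunal RNA: Gata4, Gata5, Gata6, Hnf4a, Hnf4g, Cdx1, Cdx2, Pdx1 and Onecut2. They were the 9 rows of the count and FPKM tables that carry these symbols, out of 56691 genes listed and 34471 with any count. Each symbol matched 1 row. The libraries came from the distal jejunum of 24 C57BL/6 mice, 1 library per mouse and 3 mice in each of 8 groups. Wild type mice and Ptk6-/- mice, which lack the tyrosine kinase PTK6 through a germline disruption and so in every cell type, were studied in both sexes. Control mice drank regular water, and treated mice drank water with 100 mM succinate for 7 days, a treatment that activates tuft cells. The 8 groups were thus wild type control, Ptk6-/- control, wild type succinate and Ptk6-/- succinate, in males and in females. Since 1 piece of gut was taken from each mouse, small differences in where the pieces were cut would enter every comparison, and the question asked was whether the libraries differed in position along the gut.

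As deposited (GRCm39 according to the submitters' notes), Gata4 (ENSMUSG00000021944) lies on chromosome 14 from 63436371 to 63509141, on the minus strand. Gata5 (ENSMUSG00000015627) lies on chromosome 2 from 179966926 to 179976492, also on the minus strand. Hnf4a (ENSMUSG00000017950) lies on the same chromosome from 163348728 to 163401030 on the plus strand, and Hnf4g (ENSMUSG00000017688) on chromosome 3 from 3573084 to 3724860 on the plus strand. Cdx2 (ENSMUSG00000029646), on the minus strand from 147237615 to 147244080, and Pdx1 (ENSMUSG00000029644), on the plus strand from 147206769 to 147212658, are close neighbours on chromosome 5. Gata6 (ENSMUSG00000005836), Cdx1 (ENSMUSG00000024619) and Onecut2 (ENSMUSG00000045991) share chromosome 18, from 11052064 to 11085635, from 61151934 to 61169271 and from 64473091 to 64534058. Their promoters are not shown here.

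The GATA factors are zinc finger proteins that bind GATA motifs in open chromatin. In the adult small intestine Gata4 is known to mark the duodenum and jejunum and to hold back ileal genes such as those for bile acid uptake, while Gata6 is present along the whole length and Gata5 mainly in villus cells. Hnf4a and Hnf4g are paralogous nuclear receptors that switch on brush border and lipid handling genes in enterocytes. Cdx1 and Cdx2 are homeobox factors that set intestinal against gastric identity, Pdx1 is a homeobox factor of the pancreas and proximal duodenum, and Onecut2 is a cut homeobox factor known from liver and early intestine.

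Promoter sequences from RefSeq (GRCm38.p6, so not on the coordinates given above) were matched for 4 of the 9 factors, with 5 promoters in all because Hnf4a has a pair. They are shown because these factors are known to act on each other's genes, and because Hnf4a and the GATA factors went up and down together across the mice. Each run covers the 250 bases before the start of the gene, written 5′ to 3′ along the gene's own strand. Capitals mark matches to 2 motifs searched on both strands, AGATAA for GATA factors and ATTAAC for HNF1 factors.
Hnf4a, upstream promoter, chr2:163506607-163506856, plus strand: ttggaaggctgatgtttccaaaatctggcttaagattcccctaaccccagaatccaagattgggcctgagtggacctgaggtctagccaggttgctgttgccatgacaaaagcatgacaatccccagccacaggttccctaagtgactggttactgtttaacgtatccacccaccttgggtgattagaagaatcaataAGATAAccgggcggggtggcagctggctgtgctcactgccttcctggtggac
Hnf4a, downstream promoter, chr2:163546905-163547154, plus strand: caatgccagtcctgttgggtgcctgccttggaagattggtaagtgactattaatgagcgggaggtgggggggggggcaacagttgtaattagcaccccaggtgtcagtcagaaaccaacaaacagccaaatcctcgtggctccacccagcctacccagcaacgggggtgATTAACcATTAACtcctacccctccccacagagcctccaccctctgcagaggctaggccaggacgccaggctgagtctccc
Cdx2, chr5:147307250-147307499, minus strand: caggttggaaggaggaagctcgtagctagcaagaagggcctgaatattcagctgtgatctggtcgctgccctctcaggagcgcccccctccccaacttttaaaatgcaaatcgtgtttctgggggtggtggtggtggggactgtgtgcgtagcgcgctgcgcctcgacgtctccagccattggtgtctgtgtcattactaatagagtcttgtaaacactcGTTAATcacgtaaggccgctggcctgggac

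The upstream Hnf4a promoter held AGATAA, 52 bases before the start, a run found in 9.99% of the 32851 mouse promoters of this length. The downstream promoter held ATTAAC at 81 and at 74 bases before the start, and the Cdx2 promoter its reverse complement GTTAAT at 30 bases, against 6.43% of all promoters. The runs CAAAGT for HNF4 factors, found in 12.6% of promoters, and TTTAT for CDX factors, found in 37.3%, were in none of the 5. The promoters of Gata5 and Pdx1 held none of the 4 runs. A match is a description of the letters, and counts per gene do not show which Hnf4a promoter was in use.

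Libraries held 8080321 to 52824743 counts. In 2 of them the 18S ribosomal RNA gene Rn18s-rs5 took a large share, 51.2% (95% Wilson interval 51.20% to 51.24%, for counting error only) in the first wild type control male and 29.7% (29.68% to 29.74%) in replicate 1 of the Ptk6-/- males on succinate, against 0.108% to 4.49% in the others. The deposited FPKM of the 7 expressed factors were low in both beside their CPM, so levels of the factors are compared between mice as CPM, each gene's count over the library total after TMM normalization, scaled to 1e6 counts, and FPKM, which is per length, is used to compare genes with each other and to give the levels of marker and index genes. Replicate 2 of the wild type females on succinate carried heart transcripts, with a summed FPKM of 3271 over 9 of the 11 heart markers against 10.3 to 53.9 in the other libraries. Lung markers, 6 of the 7 listed, summed to 9.13 to 20.9 FPKM in the 6 Ptk6-/- female libraries and in replicate 3 of the wild type females on succinate. Elsewhere they summed to at most 1.34 FPKM, and the part of such RNA in the female comparisons was not tested. Ptk6 itself was at 1.76 to 10.6 FPKM in the 12 wild type libraries and at 0.0643 to 0.264 FPKM in the 12 Ptk6-/- libraries.

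Of the 9 factors, 7 were expressed in every mouse, while Pdx1 and Onecut2 were near 0. Per length, Cdx1 and Hnf4a were at the top, with medians over 24 libraries of 105.8 FPKM (40.2 to 189) and 108.3 FPKM (17.5 to 163.1). Cdx1 was the higher of the pair in 12 of 24 libraries, so their order was not fixed. Hnf4a exceeded Cdx2, with a median of 69.1 FPKM (13.4 to 85.0), in 21 of 24 libraries. Cdx2 exceeded Gata5, at 35.7 FPKM (5.43 to 60.01), in all 24. Gata5 exceeded Hnf4g, at 26.6 FPKM (2.09 to 43.9), in 22, and Hnf4g exceeded Gata4, at 11.5 FPKM (1.76 to 17.2), in 22. Gata4 exceeded Gata6, at 6.23 FPKM (1.80 to 10.8), in 23. The GATA family was therefore led by Gata5, which stood 1.57 to 5.35 times as high as Gata4 in FPKM in each library, and the HNF4 pair by Hnf4a, 3.15 to 8.35 times as high as Hnf4g.

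**Figure D1:**
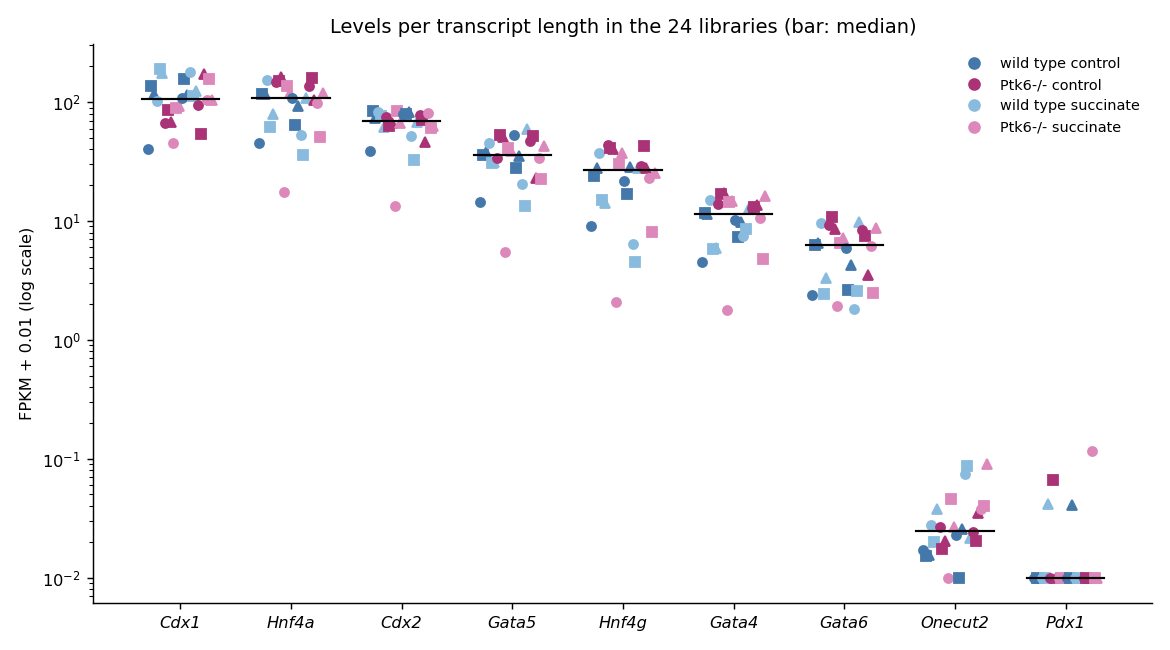
FPKM plus 0.01 on a log axis for each factor in the 24 libraries, with colours for genotype and treatment, circles, squares and triangles for replicates 1, 2 and 3, and a bar at the median. In all, 7 factors lie above 1 FPKM in every library, and Onecut2 and Pdx1 lie near 0.

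Pdx1 had no count in 20 of the 24 libraries. The other 4 libraries held 4, 5, 8 and 15 counts, in a succinate-treated wild type male, a wild type control female, a Ptk6-/- control male and a succinate-treated Ptk6-/- female. A count of 0 allows up to 3 counts, so Pdx1 was not detectable at this depth in most mice and was in no comparison, since it never reached 10 counts in 3 libraries. Its neighbour Cdx2, on the other strand, held 477 to 13880 counts in the same libraries.

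Onecut2 held 0 to 84 counts, at most 0.0802 FPKM. In wild type females it had 13, 0 and 16 counts in controls and 64, 55 and 10 after succinate, and in Ptk6-/- females 12, 11 and 24 counts in controls and 30, 33 and 84 after succinate. Male libraries stayed between 0 and 29 counts. The groups overlapped in wild type females. In Ptk6-/- females they did not overlap in counts, but they did in CPM, where one control reached 0.677 and the treated mice started at 0.543.

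The position of the tissue was read from genes outside the 9. The tissue carried its epithelial markers, with a summed FPKM of 1120 to 12239 over 6 enterocyte genes. Of the 9 colon genes listed, 3 had a count anywhere, among them Aqp8, a water channel, at no more than 1.45 FPKM. Of the 7 stomach genes, Sox2 reached at most 0.118 FPKM and Pgc at most 0.28 FPKM. Of the ileal genes listed, those with the highest mean FPKM were Fabp6, the ileal bile acid binding protein, at 30.9 to 4203 FPKM and the lectin gene Clec2h at 57.3 to 773.3 FPKM. Slc10a2, Fgf15, Cubn and Nr1h4 of the same list reached at most 33.1 FPKM. Of the proximal genes listed, the highest were Apoa4, an apolipoprotein of chylomicrons, at 501.1 to 3635 FPKM and Rbp2, the cellular retinol binding protein of enterocytes, at 169.7 to 2101 FPKM. Cybrd1 and Slc40a1 of that list reached at most 1.99 FPKM.

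In control males the groups did not overlap by genotype for 6 of the 7 factors tested. Gata4, Gata6 and the HNF4 pair were higher in Ptk6-/- mice and the CDX pair lower, each by less than 2-fold. Gata4 stood at 50.3, 56.6 and 56.1 CPM in wild type males and at 64.6, 82.0 and 88.9 CPM in Ptk6-/- males. Gata6 stood at 44.3, 51.8 and 53.4 CPM against 70.8, 86.8 and 74.2 CPM. Every Ptk6-/- male was above every wild type male for both of these. Hnf4a stood at 620.3, 712.3 and 717.4 CPM against 844.6, 905.5 and 1042 CPM. Hnf4g stood at 113.8, 132.9 and 155.2 CPM against 228.4, 223.9 and 233.0 CPM. The HNF4 groups did not overlap either.

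Cdx1 went the other way, at 200.1, 299.0 and 259.1 CPM in wild type control males and 137.4, 184.0 and 157.5 CPM in Ptk6-/- control males. Cdx2 stood at 249.1, 240.9 and 211.9 CPM against 201.4, 177.4 and 201.1 CPM. Both CDX genes were lower in every Ptk6-/- male. Gata5 was the exception, at 134.9, 147.9 and 159.2 CPM against 131.9, 213.0 and 218.7 CPM, with overlapping groups.

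By edgeR's quasi-likelihood test with Benjamini-Hochberg adjustment over 19218 genes, 2 of the 7 factors tested passed an adjusted p of 0.05, where 4.23% of all genes did. Hnf4g was higher by 0.74 on the log2 scale (SE 0.13, adjusted p 0.0310) and Gata6 by 0.60 (SE 0.12, adjusted p 0.0397). Gata4 was higher by 0.50 (SE 0.14, adjusted p 0.0802) and Hnf4a by 0.41 (SE 0.16, adjusted p 0.155) without passing. Cdx1 had a log2 fold change of -0.69 (SE 0.17, adjusted p 0.0569) and Cdx2 of -0.32 (SE 0.14, adjusted p 0.192). None of the 7 was called when a fold change of at least 2 was also required, against 0.739% of all genes, although 6 of the 7 had an unadjusted p under 0.05, as did 4837 of the 19218 genes. Groups did not overlap for 6 of the 7, against 32.0% of all genes. DESeq2 also called none at 2-fold, with 5 of the 7 (Gata4, Gata6, Hnf4a, Hnf4g and Cdx1) at an adjusted p under 0.05, where 15.5% of all genes were. Both calls without a fold threshold were lost, with adjusted p of 0.0827 to 0.128, when wild type control replicate 2 or 3 or Ptk6-/- control replicate 2 or 3 was left out, and they stood without replicate 1 of either group, the wild type one being the library rich in 18S. In bulk RNA, more cells that express a factor and more RNA per cell cannot be told apart.

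**Figure D2:**
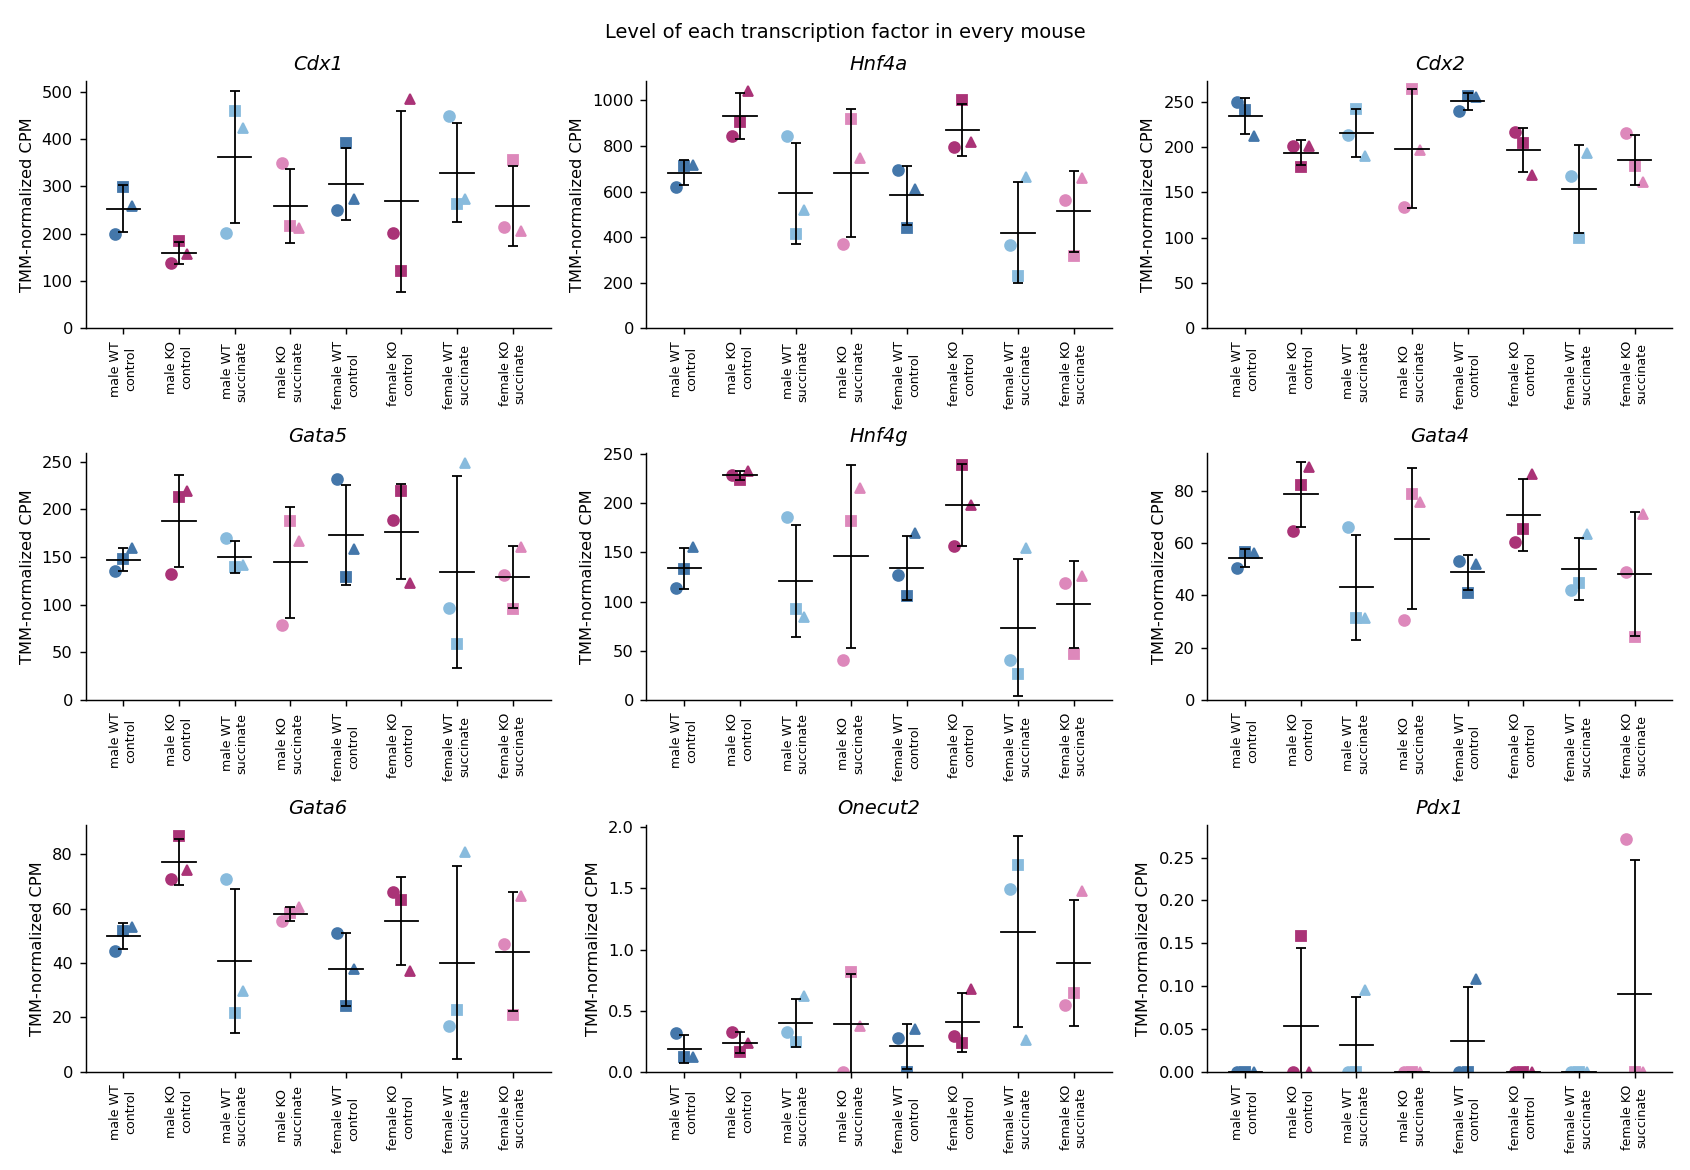
TMM-normalized CPM of each factor in the 24 mice by group (WT, wild type, KO, Ptk6-/-), with circles, squares and triangles for replicates 1, 2 and 3, and the mean with SD (n = 3) in black. Hnf4g and Gata6 in control males are separated by genotype, with Ptk6-/- mice from 223.9 and 70.8 CPM upwards.

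The libraries of the male controls also differed in how counts followed gene length. A length slope, the change in log2 CPM per doubling of gene length, was fitted in each library, and it was -0.047, -0.022 and -0.020 in wild type and 0.141, 0.089 and 0.081 in Ptk6-/- control males. Over all 24 libraries, Cdx1 ran against this slope with a Pearson correlation of -0.87, while Gata6 followed it with 0.77, Gata4 with 0.69, Hnf4a with 0.63, Hnf4g with 0.59 and Gata5 with 0.51. Cdx2 had -0.02. The quartiles of this correlation over the 21694 genes were -0.27 and 0.44. These correlations across libraries are given as a description. Cdx1 has the shortest length of the 9 at 2.44 kb. With an offset for the length trend in the test, Hnf4g remained at 0.67 and Gata4 at 0.47 on the log2 scale, Gata6 came to 0.41, Hnf4a to 0.31, Cdx1 to -0.45 and Cdx2 to -0.14, and the adjusted p were 0.0555 to 0.632. The directions held and both calls without a fold threshold were lost. In limma on log2(FPKM + 1) Cdx2 changed direction, to 0.13 (adjusted p 0.944).

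**Figure D3:**
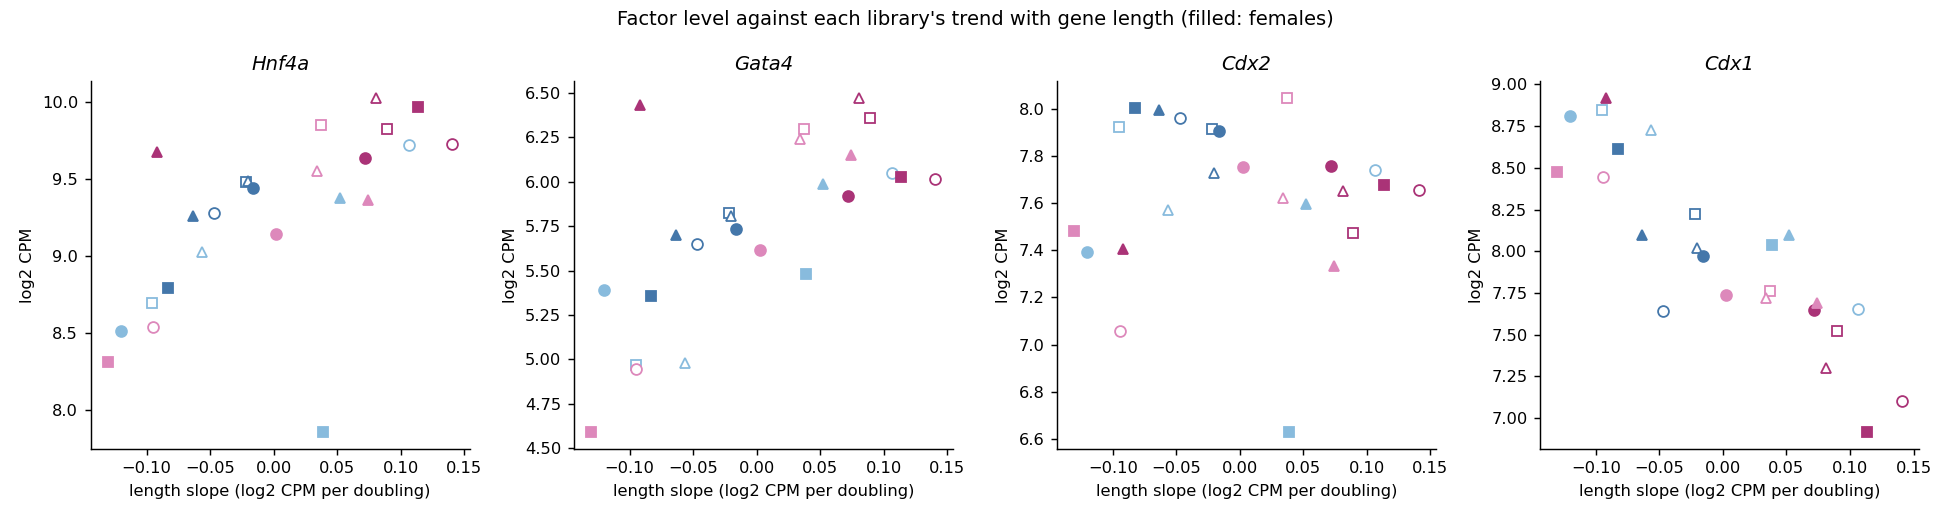
log2 CPM of Hnf4a, Gata4, Cdx2 and Cdx1 against each library's length slope, in log2 CPM per doubling of gene length, for 24 libraries, with blue for wild type, magenta for Ptk6-/-, dark shades for controls, light shades for succinate and filled symbols for females. Hnf4a and Gata4 go up with the slope, Cdx1 goes down and Cdx2 shows neither.

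In control females the same factors leaned the same way with a wider spread. Gata4 stood at 53.2, 40.9 and 52.1 CPM in wild type females and at 60.5, 65.3 and 86.4 CPM in Ptk6-/- females. Hnf4a stood at 692.9, 442.1 and 613.1 CPM against 794.8, 1001 and 816.2 CPM. Cdx2 stood at 239.8, 256.4 and 254.8 CPM against 216.0, 204.7 and 169.3 CPM. These 3 of the 8 factors tested had groups that did not overlap, against 18.8% of all genes. The log2 fold changes were 0.53 (SE 0.24, edgeR adjusted p 0.455) for Gata4, 0.57 (SE 0.29, adjusted p 0.485) for Hnf4a and -0.36 (SE 0.22, adjusted p 0.558) for Cdx2, which came to -0.13 with the length offset.

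The other factors overlapped between female controls. Hnf4g reached 105.3 to 169.7 CPM in wild type and 156.0 to 239.2 CPM in Ptk6-/- females, and Gata6 24.3 to 51.2 against 36.9 to 66.2 CPM. Cdx1 was widest in Ptk6-/- females, at 200.6, 120.8 and 484.5 CPM, and the mouse with the highest value had a length slope of -0.092 against 0.072 and 0.113 in the other two. No factor was called, with 0 at an unadjusted p under 0.05 in edgeR, 0 by DESeq2, and 0.0158% of all genes called. The difference between sexes in the genotype effect was tested in the 12 control mice and gave log2 values from -0.51 for Cdx1 to 0.30 for Gata5, with all adjusted p at 0.999. No factor and 0% of all genes were called in it, 0 factors had an unadjusted p under 0.05 and DESeq2 called none.

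Under succinate the genotypes overlapped for all 8 factors tested in both sexes. In males, Gata4 ran from 31.3 to 66.2 CPM in wild type and from 30.8 to 78.6 CPM in Ptk6-/- mice, Hnf4a from 414.6 to 841.4 against 371.5 to 920.2 CPM, and Cdx1 from 201.2 to 459.7 against 211.3 to 349.2 CPM. No factor was called in edgeR or DESeq2 and 0 had an unadjusted p under 0.05. Among all genes 0% were called and 9.26% did not overlap. voom with sample quality weights, which gives less weight to libraries far from their group, called Gata4 (log2 1.22, adjusted p 0.0148), Gata6 (1.11, adjusted p 0.0192) and Hnf4g (1.04, adjusted p 0.0455) higher in Ptk6-/- males, beside 10.2% of all genes. B cell follicle markers did not overlap in the same comparison, with summed FPKM of 30.7 to 35.5 in treated wild type males and 2.58 to 11.9 in treated Ptk6-/- males, and their part in these values was not tested. In succinate-treated females log2 fold changes ran from -0.41 for Onecut2 to 0.37 for Hnf4g, 0 had an unadjusted p under 0.05 in edgeR and none was called by edgeR or DESeq2, with 0% of all genes called and 10.7% not overlapping.

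Succinate in wild type males gave overlapping groups for all 8 factors, and 1 treated mouse stood apart from the other two. Gata4 was at 66.2 CPM in replicate 1 and 31.3 and 31.5 CPM in replicates 2 and 3, against 50.3 to 56.6 CPM in controls. Gata6 was at 71.0, 21.8 and 29.6 CPM against 44.3 to 53.4 CPM. Hnf4g was at 186.0, 92.6 and 84.3 CPM against 113.8 to 155.2 CPM, and Cdx1 at 201.2, 459.7 and 423.2 CPM against 200.1 to 299.0 CPM. The first mouse thus lay above the controls for Gata4, Gata6 and Hnf4g and the other two below.

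With all 6 libraries no factor was called, 0 had an unadjusted p under 0.05 in edgeR and none was called by DESeq2. Among all genes 0% were called and 8.70% did not overlap. On the same 6 libraries, voom with sample quality weights put 5 of the 8 factors (Gata4, Gata6, Hnf4a, Hnf4g and Cdx1) at an adjusted p under 0.05. None of these reached 2-fold, and 4402 of all genes passed that adjusted p. Without replicate 1 of the treated mice, 4 of 7 factors passed an adjusted p of 0.05, where 14.6% of all genes did, none of the 4 at 2-fold. Gata4 fell by 0.83 on the log2 scale (edgeR adjusted p 0.00889), Gata6 by 0.99 (adjusted p 0.0153) and Hnf4g by 0.64 (adjusted p 0.0299), and Cdx1 rose by 0.77 (adjusted p 0.0269). In that setting 5.8% of all genes were called at 2-fold. The length slope of the mouse left out was 0.106, against -0.095 and -0.056 in the other two treated mice and -0.047 to -0.020 in the controls. B cell follicle markers were higher in all 3 treated mice, with a summed FPKM over 6 genes of 30.7 to 35.5 against 5.92 to 10.01 in controls, the control at 10.01 being the library rich in 18S with low FPKM. Tuft cell markers did not overlap either, with summed FPKM over 6 genes of 5.36 to 7.29 against 1.58 to 4.29, the lowest control being that same library. The part of both in these values was not tested.

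In Ptk6-/- males, 3 factors had groups that did not overlap after succinate, against 24% of all genes. Gata6 stood at 70.8, 86.8 and 74.2 CPM in controls and 55.4, 58.6 and 60.5 CPM in treated mice, a log2 fold change of -0.36 (SE 0.18, edgeR adjusted p 0.600). Hnf4g stood at 228.4, 223.9 and 233.0 CPM against 40.5, 181.7 and 215.7 CPM, a log2 fold change of -0.62 (SE 0.51, adjusted p 0.698). The lowest treated value came from the library rich in 18S, and without it Hnf4g was at -0.20. Cdx1 stood at 137.4, 184.0 and 157.5 CPM against 349.2, 217.1 and 211.3 CPM, a log2 fold change of 0.76 (SE 0.30, adjusted p 0.600). Without that library Cdx1 was at 0.43 and Gata6 at -0.37, and with the length offset Gata6 was at -0.06. In limma on log2(FPKM + 1), Cdx1 came to -0.0070. The genotype by succinate interaction in males gave adjusted p of 0.993 to 0.999 for the 8 factors, with 0 at an unadjusted p under 0.05, none called by DESeq2 and 0% of all genes called. No factor was called in the succinate comparison by edgeR or DESeq2, 1 had an unadjusted p under 0.05, and 0% of all genes were called.

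In wild type females, Cdx2 was the 1 factor of 8 whose groups did not overlap after succinate, against 13% of all genes. It stood at 239.8, 256.4 and 254.8 CPM in controls and 168.1, 99.0 and 193.6 CPM in treated mice, a log2 fold change of -0.70 (SE 0.31, edgeR adjusted p 0.640). Hnf4g stood at 127.0, 105.3 and 169.7 CPM against 40.2, 26.7 and 154.0 CPM, and Hnf4a at 692.9, 442.1 and 613.1 CPM against 364.0, 231.4 and 665.1 CPM. Replicates 1 and 2 of the treated mice were below every control for both HNF4 genes, and replicate 3 was within the control range. No factor was called by edgeR or DESeq2, 0 had an unadjusted p under 0.05 and 0% of all genes were called. Without replicate 3, Hnf4g was called lower, by -1.96 on the log2 scale (edgeR adjusted p 0.0301), beside 3.23% of all genes.

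Gata4, which is also a heart factor, was at 41.9, 44.7 and 63.5 CPM in the treated wild type females, against 40.9 to 53.2 CPM in controls. The middle value belongs to the library with heart transcripts, in which Myh6, the alpha cardiac myosin heavy chain, reached 947.1 FPKM and Nppa, atrial natriuretic peptide, 41.0 FPKM. The groups overlapped, although the 63.5 CPM of replicate 3 lay above every control. The part of the heart RNA in the Gata4 level of replicate 2 was not tested.

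In Ptk6-/- females the HNF4 genes were lower after succinate in every treated mouse. Hnf4a stood at 794.8, 1001 and 816.2 CPM in controls and 564.8, 316.6 and 658.4 CPM in treated mice, a log2 fold change of -0.79 (SE 0.36, edgeR adjusted p 0.483). Hnf4g stood at 156.0, 239.2 and 198.0 CPM against 119.0, 46.3 and 126.4 CPM, a log2 fold change of -1.06 (SE 0.41, adjusted p 0.445). These 2 of the 8 factors did not overlap, against 21.0% of all genes. Cdx2 stayed close, at 216.0, 204.7 and 169.3 CPM against 215.5, 178.5 and 161.4 CPM. No factor was called by edgeR or DESeq2, 1 had an unadjusted p under 0.05, and 0.0879% of all genes were called. The genotype by succinate interaction in females called none of the 8 factors and 0% of all genes, with adjusted p of 0.802 to 0.992, 0 at an unadjusted p under 0.05 and none called by DESeq2.

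Markers of several cell types differed in the same female libraries. Over 6 tuft cell genes the summed FPKM was 2.43 to 4.42 in the 6 control females and 9.53 to 38.9 in the treated ones. Over 6 enterocyte genes it was 5295 to 12239 in control females and 1120 to 7253 in treated females, the highest treated value being replicate 3 of the wild type. Over 6 smooth muscle genes it was 596.4 to 1106 in Ptk6-/- control females and 1215 to 1668 in treated ones, without overlap. In wild type females it was 876.6 to 1132 in controls, 2150 and 2086 in treated replicates 1 and 2, and 1093 in replicate 3. In Ptk6-/- females, 5 Paneth cell genes summed to 5893 to 13155 FPKM in controls and 13606 to 37701 FPKM in treated mice. There 5 stem cell genes summed to 36.9 to 124.2 FPKM in controls and 135.3 to 143.6 FPKM in treated mice. Neither sum overlapped in Ptk6-/- females, while both overlapped in wild type females. The part of cell composition in the HNF4 and index values was not tested.

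**Figure D4:**
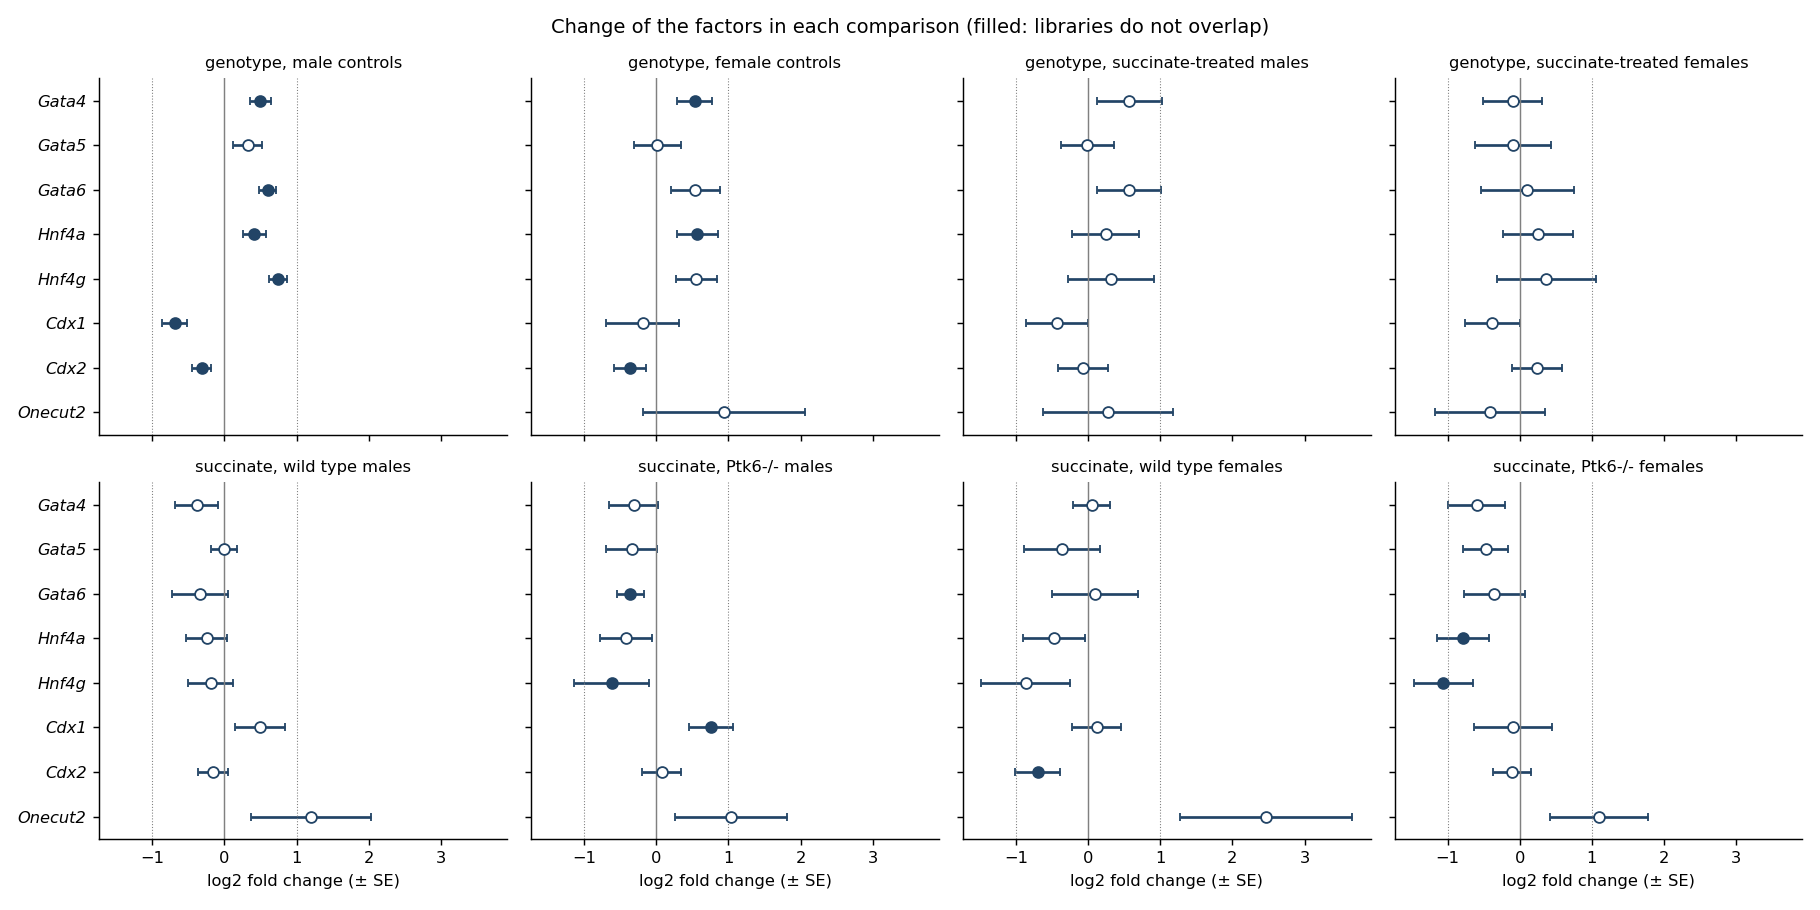
log2 fold change with SE from edgeR for each factor in the 8 genotype and succinate comparisons, Ptk6-/- against wild type or succinate against control, with dotted lines at 2-fold. Filled points mark factors whose libraries do not overlap, 6 of 7 in control males and at most 3 elsewhere.

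Wild type control females and males overlapped for all 7 factors tested. Log2 fold changes, female against male, ran from -0.42 for Gata6 to 0.26 for Cdx1. None was called by edgeR or DESeq2 and 0 had an unadjusted p under 0.05, against 0.0422% of all genes called and 23.2% not overlapping. Over all 8 groups in 1 test, the smallest adjusted p of a factor was 0.381, for Onecut2, and none was called, where 2.54% of 21694 genes were. In that test 0 factors had an unadjusted p under 0.05, and DESeq2 called none. Voom with sample quality weights called 7 of the 8 factors in it, but also 62.9% of all genes.

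The factors were then set against genes of known position. A regional index was taken in each library as the mean log2 CPM of 9 distal enterocyte genes, among them Fabp6, Slc10a2, the ileal bile acid transporter, and Cubn, the receptor for vitamin B12 with its binding protein, minus that of 13 proximal enterocyte genes, among them Apoa4, Rbp2, Lct, the lactase gene, and S100g, the calcium binding protein of the duodenum. None of the 9 factors is in it. In male mice the index was 2.28 to 3.29, with 2.32 to 2.76 in wild type controls, 2.38 to 3.11 in Ptk6-/- controls, 2.28 to 2.39 in treated wild type mice and 2.53 to 3.29 in treated Ptk6-/- mice. In control females it was 2.42 to 2.95 in wild type and 2.40 to 2.95 in Ptk6-/- mice. Most of these 6 groups overlapped, but treated wild type males lay below treated Ptk6-/- males and below both groups of control females without overlap. These differences in the index were not tested.

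In succinate-treated females the index was 0.40, -0.05 and 2.56 in wild type and 1.26, 0.45 and 0.10 in Ptk6-/- mice. Thus 5 of the 6 lay below every other library, and replicate 3 of the wild type lay among the controls. The mean log2 CPM of the distal genes was 5.67 to 7.95 in the 6 treated females and 7.63 to 8.49 in control females, and that of the proximal genes was 5.40 to 6.10 against 5.05 to 5.86, both with overlap. Fabp6 was at 360.5, 110.4 and 1514 FPKM in treated wild type females and 347.0, 126.6 and 30.9 FPKM in treated Ptk6-/- females, against 531.5 to 3116 FPKM in control females. Slc10a2 was at 1.46, 0.744 and 6.84 FPKM and at 5.16, 2.55 and 3.41 FPKM, against 7.77 to 15.8 FPKM. Rbp2 was at 2101, 1819 and 379.9 FPKM and at 783.9, 1462 and 1269 FPKM, against 213.4 to 648.1 FPKM. S100g was at 35.1, 45.3 and 2.76 FPKM and at 8.84, 47.1 and 14.2 FPKM, against 0.798 to 5.50 FPKM. Lct, a gene of the proximal list, did not follow, with 6.92, 2.43 and 61.8 FPKM and 32.1, 0.935 and 15.9 FPKM against 28.4 to 74.5 FPKM. Clec2h, a gene of the distal list, overlapped in Ptk6-/- females, with 413.6, 282.6 and 265.7 FPKM after succinate against 207.9 to 420.6 FPKM.

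**Figure D5:**
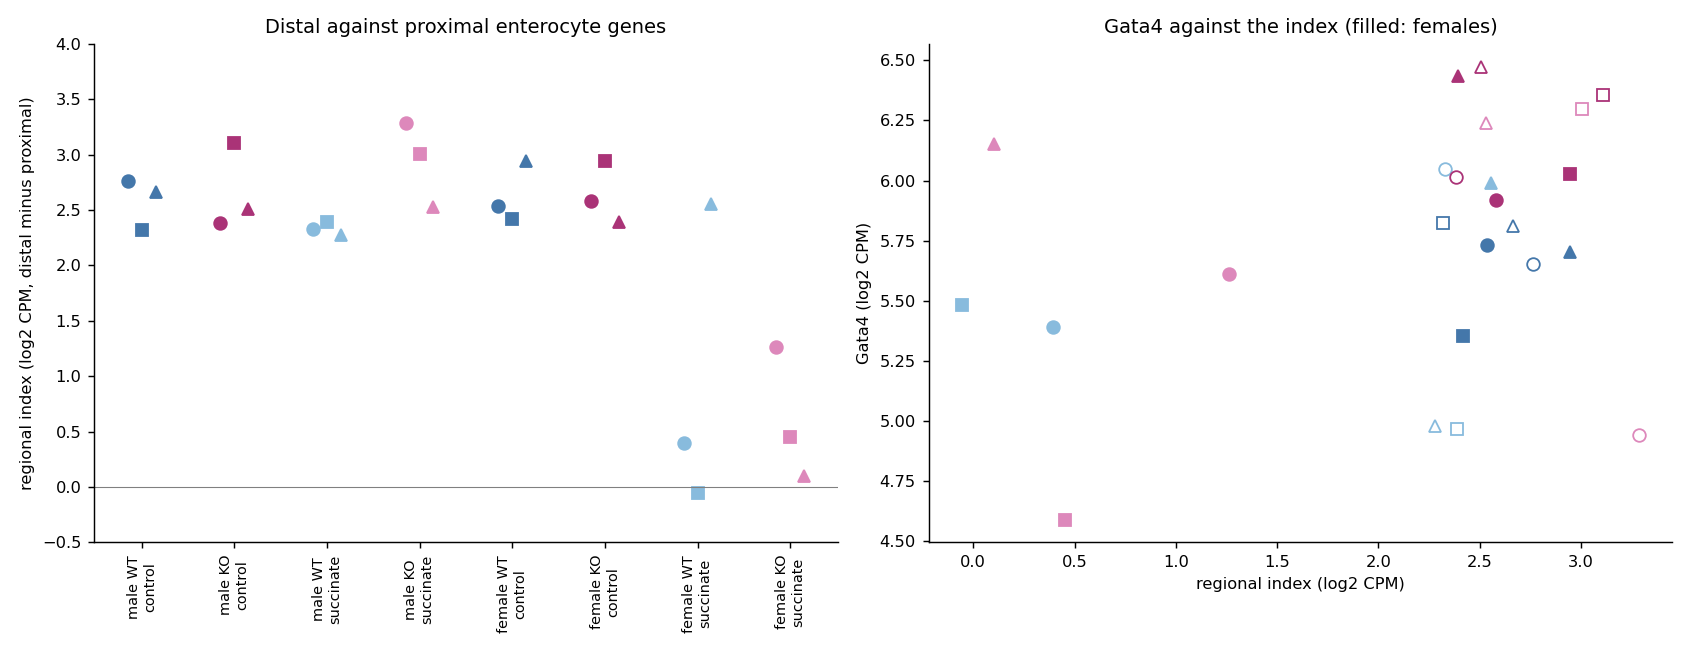
Left, the regional index (mean log2 CPM of 9 distal minus 13 proximal enterocyte genes) in each mouse by group (WT, wild type, KO, Ptk6-/-). Right, Gata4 in log2 CPM against the index, with filled symbols for females and circles, squares and triangles for replicates 1, 2 and 3. In 5 succinate-treated females the index lies between -0.05 and 1.26, while Gata4 runs from 24.1 to 71.2 CPM in them.

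By list, the 9 distal genes had a median log2 fold change after succinate of -1.21 in females that were wild type and -1.44 in Ptk6-/- ones, with 0 and 1 of the 9 higher. Over all genes tested the medians were 0.03 and -0.04. The proximal genes had medians of -0.29 over 12 tested and 0.24 over 13. With 1 mouse left out, the distal median of wild type females ran from -1.84, without treated replicate 3, to -0.84. The proximal median of wild type females was -0.12 without control replicate 3, -0.15 without treated replicate 2 and -0.48 without treated replicate 1. That of Ptk6-/- females was 0.38 without control replicate 1, 0.56 without control replicate 3 and 0.15 without treated replicate 2. No gene of either list was called in a comparison of groups. In the test over all 8 groups, 1 proximal gene, S100g (adjusted p 0.0121), and 2 distal genes, Fgf15, the ileal hormone of bile acid feedback (adjusted p 0.0421), and Nr1h4, the bile acid receptor FXR (adjusted p 0.0274), passed. Fgf15 was at 36.9 to 106.9 CPM in treated females and 48.0 to 135.1 CPM in control females, with overlap, and its lowest values were in males, at 5.3 to 51.2 CPM. Nr1h4 was at 18.1 to 52.2 CPM in treated females, below the 61.2 to 97.1 CPM of control females. Enteroendocrine genes of either end were not called in any of the 13 comparisons. Of the proximal ones, Sct, for secretin, was at 8.18 to 40.2 FPKM and Gip at 8.01 to 39.0 FPKM. Of the distal ones, Nts, for neurotensin, was at 7.72 to 75.7 FPKM and Pyy, for peptide YY, at 7.48 to 69.5 FPKM.

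Gata4, the factor best known for the jejunal against ileal difference, did not separate these females. It was at 41.9, 44.7, 48.9, 24.1 and 71.2 CPM in the 5 with a low index and at 63.5 CPM in the sixth treated female. In the 18 mice outside the treated females it was at 30.8 to 88.9 CPM. To ask whether mice of 1 group varied together in a factor and in the index, both were taken as deviations from the group mean over 24 mice and tested with 100000 permutations within groups, two-sided, for 9 relations. Since the index falls into separate ranges, no correlation across groups is given. Gata4 had a Pearson r of 0.07 (permutation p 0.762, adjusted p 0.762) and a Spearman rho of 0.04 (permutation p 0.881, adjusted p 0.881).

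Gata5 had the highest Pearson r of the 9, 0.56 (permutation p 0.197, adjusted p 0.426), with a rho of 0.29 (permutation p 0.304, adjusted p 0.616). Without the 2 mice whose index, as a deviation from its group mean, lay farthest from the median of these deviations, it was 0.04. That value thus rested on those mice. Gata6 was at 0.54 (permutation p 0.198, adjusted p 0.426, rho 0.40), Hnf4g at 0.44 (permutation p 0.304, adjusted p 0.426, rho 0.24), Cdx2 at 0.44 (permutation p 0.331, adjusted p 0.426, rho 0.25) and Hnf4a at 0.41 (permutation p 0.319, adjusted p 0.426, rho 0.19). Without the 2 farthest mice these came to 0.23, -0.05, -0.01 and -0.07. Cdx1 was at -0.15 (permutation p 0.522, adjusted p 0.587, rho -0.10) and Onecut2 at -0.37 (permutation p 0.0988, adjusted p 0.426, rho -0.42).

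Pdx1 had an r of 0.38 (permutation p 0.0373, adjusted p 0.336) and a rho of 0.64 (permutation p 0.00344, adjusted p 0.0310). It had counts in only 4 of the 24 libraries and ranks for it are mostly ties, so this value says little about Pdx1. Among the 18 male and control female mice alone, r ran from -0.27 for Gata4 to 0.52 for Pdx1 with adjusted p of 0.793 or more.

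Several of the factors varied together. Across 24 libraries, and as a description, Hnf4a and Hnf4g had a Pearson r of 0.95, or 0.93 as deviations from group means. Gata4 had 0.82 with Hnf4a and 0.78 with Hnf4g, and Gata5 had 0.83 with each of them. Gata4 and Gata6 were at 0.72. Cdx1 ran against the GATA and HNF4 factors, from -0.74 with Gata6 to -0.48 with Gata5, and had -0.12 with its paralog Cdx2. The ratio of Cdx1 to Cdx2 in FPKM went from 0.763 to 3.70 over the libraries. These libraries share the differences in length slope given above.

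The genes most like a factor across the 24 libraries were taken from 9963 protein-coding genes whose mean FPKM reached 1. For Hnf4a they were Myo1d (Pearson r 0.98), Carmil1 (0.98) and A1cf (0.96), at 5.62 to 67.6, 0.506 to 7.71 and 0.444 to 13.9 FPKM. For Gata4 they included Cilk1 and Heatr5b, each at 0.93, and for Cdx2 they were Clec2h (0.86), Gm7030 (0.85) and Maoa (0.85). Clec2h is also 1 of the distal genes of the index. Correlations over 0.5 were common, in 29.3% of these genes for Hnf4a, 23.8% for Gata4 and 13.4% for Cdx2.

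Other transcription factors that work with these 9 in gut epithelium were followed as a list of 25, of which 23 reached the count minimum in some comparison. Elf3, an ETS factor of epithelial differentiation, was highest at 52.5 to 335 FPKM, followed by Klf4, a zinc finger factor of differentiating cells, at 7.31 to 140.9 FPKM. In control males 16 of 21 tested were higher in Ptk6-/- mice and 5 lower, with a median log2 fold change of 0.26 where that of all genes was 0.02, and among control females 18 of 22 were higher, the median being 0.38. In control males Elf3 overlapped (log2 fold change -0.16) and Klf4 did not, with a log2 fold change of 0.93 (SE 0.23, edgeR adjusted p 0.0574). None was called at 2-fold in a comparison of groups. Over all 8 groups, Tcf7l2, a nuclear effector of WNT signals, passed (adjusted p 0.0157), with means of 31.7 ± 2.6 CPM (SD, n = 3) in wild type and 56.7 ± 14.1 CPM in Ptk6-/- control males.

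Known targets of CDX and HNF4 factors were a list of 11. Apoa1, an apolipoprotein of chylomicrons and HDL, was highest at 3071 to 12795 FPKM, followed by Fabp2, the intestinal fatty acid binding protein, at 524 to 9258 FPKM. After succinate all 11 were lower in fitted value in wild type females and all 11 in Ptk6-/- females, with medians of -0.73 and -0.82 on the log2 scale, and none called. An unadjusted p under 0.05 was reached by 2 and 3 of them, and by 1466 of 18872 and 2060 of 19334 genes. Sis, Vil1, Fabp2 and Anpep of this list are also among the 6 enterocyte markers, whose summed FPKM was below every control female in 5 of the 6 treated females. In control males 7 of 11 were higher in Ptk6-/- mice and 4 lower, with a median of 0.33 and none called. Antisense transcripts that overlap or neighbour the factors stayed low in these stranded libraries, with Gata5os, Gata6os and Hnf4aos at no more than 1.65 FPKM.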

How the data were processed

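Poly(A) RNA from the distal jejunum of 24 mice was sequenced as stranded libraries, 1 per mouse, 3 in each of 8 groups taken from the labels. The authors deposited raw counts per gene and FPKM values per gene and library (fragments per length and library size, not scaled further between libraries). According to the study's methods reads were trimmed with Cutadapt, aligned with HISAT2, assembled with StringTie and merged with gffcompare, and levels were estimated with StringTie and ballgown, and the submitters' processing notes name GRCm39, FastQC and StringTie. The program that made the counts is not given in the sources used here.

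The members and gene lists were chosen with earlier results of these data known. Counts were tested with edgeR 4.0.16 (R 4.3.3), TMM normalization and the quasi-likelihood test, on genes that reached 10 counts in 3 or more libraries of a fit, within the groups compared. A call needed an adjusted p (Benjamini-Hochberg) below 0.05 and a 2-fold or larger change (adjusted p alone for the test over 8 groups). There were 9 comparisons of groups, 3 interactions and 1 test over all groups. An exact test of single values in 3 against 3 mice cannot go below p 0.1. Log2 fold changes with SE were given where libraries did not overlap or the unadjusted p was under 0.05, as well as under alternatives that move them. The 2 genes with the highest mean FPKM and any called gene were named from each list, along with index genes chosen after their values were seen. The 3 genes most like Gata4, Hnf4a and Cdx2 were named by Pearson correlation. Some genes that these rules would name are not reported here. Alternatives were DESeq2 1.42.0, its size factors in edgeR, voom with sample quality weights and log2(FPKM + 1) in limma 3.58.1, other filters, all libraries in 1 fit, an offset for gene length, a replicate block, and leaving out each library. Replicate numbers did not pair the mice. Recovery on simulated counts was scored at an adjusted p below 0.05 with no fold threshold, for changed genes drawn from the better counted ones. For the male control genotype comparison (18652 genes), 45% of genes with a true log2 fold change of 1 and 95% of those at 2 were recovered. For succinate in Ptk6-/- females (18674 genes) the shares were 2% and 33%. Total counts limit precision least for the 7 expressed factors and most for Pdx1 and Onecut2.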

Additional observations from a re-analysis of the deposited data

How the results depend on the processing

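No factor was called under any alternative in 9 of the 13 comparisons. In the genotype comparison of control males, 2 factors (Gata6 and Hnf4g) were called once the fold threshold was dropped. In succinate-treated males by genotype, voom with sample quality weights called 3. In succinate-treated wild type females the count was 0 to 1 when single mice were left out, 1 being Hnf4g without succinate replicate 3. In the test over all 8 groups, voom with sample quality weights called 7. The cause of these changes was not tested. Left-out mice gave 0 to 0 in the other comparisons and for the relations with the regional index. On log2(FPKM + 1) in limma, Cdx2 in control males by genotype came to 0.13 and Cdx1 in Ptk6-/- males after succinate to -0.0070, both against the edgeR direction. At an adjusted p under 0.05 and any fold, the 2 factors of control males (Gata6 and Hnf4g) fell to 0 with the replicate block, the length offset, both together, limma on log2(FPKM + 1), all 24 libraries in 1 fit and 4 of the 6 left-out mice, and rose to 5 in DESeq2 and 6 in voom. Over all genes the number at that threshold moved as well. It was 813 in the main fit, 1 to 244 in the settings with 0 factors, 2973 in DESeq2 and 4497 in voom. With the replicate block 0 factors were called in every comparison, Hnf4g in control males was at 0.74 (adjusted p 0.0539) and Gata6 at 0.59 (adjusted p 0.0630), and calls over all genes there went from 142 to 5. Correlations of same-numbered mice were -0.453 to 0.281 over 27 pairs, and no comparison had every pair over 0.1, so the numbers were not taken as pairs. Leaving out both 18S-rich libraries, the index over 18 mice and the index corrected for the length slope were chosen after seeing the data. In the last of these Gata6 had an r of 0.74 (permutation p 0.0298, adjusted p 0.134). Depth limits Pdx1 and Onecut2, and 3 mice per group limit every comparison.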

Other observations

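The ratio of Hnf4a to Hnf4g in FPKM was widest in succinate-treated Ptk6-/- males, from 3.15 to 8.35. The 8.35 came from replicate 1, a library rich in ribosomal RNA with 145 Hnf4g counts. Replicates 2 and 3 were at 4.60 and 3.15, so the width in these males rested on that library. In succinate-treated wild type females the ratio was next widest, from 3.93 to 8.23, and it was 3.28 to 6.21 in the other groups. The ratio of Cdx1 to Cdx2 was widest in Ptk6-/- control females, from 0.763 to 3.70. No test was made of these ratios.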
